A study of Schizosaccharomyces pombe with 6 samples.

Results

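Antisense RNAs that the annotation of fission yeast (Schizosaccharomyces pombe) names after the gene on the opposite strand were compared with those sense partners, pair by pair. A feature was taken as a member where its systematic identifier began with SPNCRNA, its name ended in -antisense- and a number, and the text before that was the name or identifier of another feature. Of 634 names of this form, 19 had no matching sense feature, which left 615 antisense RNAs of 6988 features in the count table. They pointed to 598 distinct partners, of which 15 had more than one antisense RNA. The rule takes members by name alone and uses no measured value, though it was set with earlier results of these data known.

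The RNA came from a strain with wild-type pla1 (AGP257, h- pla1-WT::kanMX) and a strain with the active-site mutation Y86D (AGP259, h- pla1-Y86D::kanMX), with 3 libraries of each. Both strains thus carried the kanMX marker at pla1 and were of mating type h-, and both were grown to log phase in YES, a rich medium. Hot acid phenol was used to extract the RNA, and poly(A)+ libraries from a strand-marking Illumina kit were sequenced as paired ends. The 3 libraries of a strain are described as replicate experiments, and nothing says that they came from separate cultures, so p-values cover no more than library-to-library spread, part of which may be technical. The single strain of each genotype is also the only one, so the mutation and any other difference between the strains cannot be told apart.

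Pla1 is the nuclear poly(A) polymerase, which adds the poly(A) tail to new RNA 3' ends. Antisense RNAs in fission yeast are mostly transcribed by RNA polymerase II and polyadenylated, and many are kept low by the nuclear exosome, by RNA interference and by chromatin factors that repress transcription within genes. Mmi1 binds meiotic RNAs through a short hexamer motif, and the MTREC complex passes them to the exosome with the help of their poly(A) tails. Transcription of an antisense RNA across a gene is known to repress the sense gene at some loci, and meiotic genes are among the classic examples of genes with abundant antisense RNA in growing cells. Poly(A)+ selection measures only molecules with a tail, so a change in level and a change in tailing cannot be told apart. In bulk RNA, fewer cells with a transcript and less transcript per cell cannot be told apart either.

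The 3' ends of 8 of these RNAs are shown because the processing signals that bear on Pla1 lie there, and because these RNAs recur in the results. Each line gives the last 100 bases of the transcript, 5' to 3', as RefSeq annotates and sequences it in assembly ASM294v3. Capitals mark AATAAA, the canonical poly(A) signal, or TNAAAC, the core of the hexamer that Mmi1 recognises, searched on the transcript strand only. Only ends clear of annotated mRNA end regions are printed. The first 3 rose in the mutant and the other 5 fell.
seh1-antisense-1: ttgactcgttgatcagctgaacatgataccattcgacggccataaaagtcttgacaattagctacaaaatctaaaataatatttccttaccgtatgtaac
aur1-antisense-1: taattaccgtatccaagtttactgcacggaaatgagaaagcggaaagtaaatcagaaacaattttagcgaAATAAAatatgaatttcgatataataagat
cyp1-antisense-1: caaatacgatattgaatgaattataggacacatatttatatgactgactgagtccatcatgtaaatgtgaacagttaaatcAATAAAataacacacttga
hop1-antisense-1: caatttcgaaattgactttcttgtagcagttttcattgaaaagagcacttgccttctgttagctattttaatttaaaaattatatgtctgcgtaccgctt
rec11-antisense-1: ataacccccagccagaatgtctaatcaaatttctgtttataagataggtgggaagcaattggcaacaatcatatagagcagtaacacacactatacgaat
mcp1-antisense-1: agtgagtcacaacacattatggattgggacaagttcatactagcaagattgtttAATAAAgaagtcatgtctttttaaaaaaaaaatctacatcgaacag
SPAC5H10.12c-antisense-1: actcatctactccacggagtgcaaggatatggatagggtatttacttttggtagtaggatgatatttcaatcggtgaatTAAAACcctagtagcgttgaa
spo4-antisense-1: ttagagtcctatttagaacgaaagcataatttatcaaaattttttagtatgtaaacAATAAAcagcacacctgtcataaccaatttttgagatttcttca

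The motifs were present in a minority of the ends in every group. Within the last 100 bases, TNAAAC was present in 21.3% of the 169 members with a RefSeq sequence that were at least 2-fold higher, in 8.79% of the 91 lower members and in 21.5% of the 135 that were not called. It stood in 17.4% of all 602 members with a sequence, in 18.4% of all 1411 SPNCRNA transcripts and in 18.8% of 5107 protein-coding transcripts. Members higher by less than 2-fold were not set apart as a group. AATAAA was present in 30.2% of members at least 2-fold higher, 23.1% of lower members and 32.6% of those not called, beside 25.1% of all members and 25.4% of protein-coding transcripts. Over the last 300 bases the shares with TNAAAC were 44.0%, 40.7% and 46.7% in the same order, and those with AATAAA were 44.0%, 47.3% and 45.2%, so lower members no longer had the lowest share of AATAAA. In that window TNAAAC was in 45.8% of SPNCRNA and 42.6% of protein-coding transcripts, and AATAAA in 43.7% and 38.9%. These are matches to letters in a window, some of which may overlap, and no difference between groups was tested.

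The antisense RNAs were low but measurable. Library totals ran from 17594840 to 21849845 counts, and the 615 members together held between 0.595% and 0.612% of the counts in the 3 pla1-WT libraries and between 0.790% and 0.810% in the 3 pla1-Y86D libraries. The strains' libraries did not overlap in that share. The median member had a mean count of 136 per library, with a range from 0 to 4138, against 1102 for the median partner, and the median member had 12.9% of its partner's count. No count was found in any library for 15 members, and 32 members, these included, were too low to test, which left 583 tested. The lists of mating-type genes were drawn up to check that both strains were M cells. Levels are given in CPM, a feature's counts relative to its library's scaled total, as edgeR's cpm function gives them. The P-cell genes found (map1, map2 and map3) summed to between 23.5 and 24.0 CPM in pla1-WT and between 21.7 and 24.0 CPM in pla1-Y86D. The M-cell genes summed to between 99.7 and 107.5 CPM in pla1-WT and between 94.2 and 99.3 CPM in pla1-Y86D, and mat1-Mc, a defining M-cell gene, was at 0 in all 6 libraries. The sums hide changes in both directions. By log2 fold change, map1 (0.32) and map2 (0.58) were higher and map3 (-0.69) lower. Of the M-cell genes, mam2 (0.80) and sxa2 (0.28) were higher, mfm2 (-0.95) and mam1 (-0.26) lower, and mfm1 and mfm3 not called. These levels alone do not settle the cell type.

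Most antisense RNAs were higher in the mutant. By edgeR's quasi-likelihood test with Benjamini-Hochberg adjustment over all features and an adjusted p under 0.05, 357 of 583 tested members were higher in pla1-Y86D, 91 were lower and 135 were not called. Over all 6267 features tested, 40.1% were called higher and 41.1% lower, whereas 61.2% of the members were higher and 15.6% lower. At 2-fold or more, 170 members were higher and 14 lower, or 29.2% and 2.40%, beside 9.02% and 2.38% of all features. The median log2 fold change, pla1-Y86D over pla1-WT, was 0.48 with quartiles of 0.02 and 1.11, and that of all features was -0.0047. The levels of the 2 strains' libraries did not overlap for 449 of the 583 tested members, 356 of them higher and 93 lower in the mutant. That is a smaller share than among all features, where 5131 of 6267 (81.9%) did not overlap.

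Other noncoding RNAs were also higher more often than lower, while more partners were called lower than higher, except at 2-fold or more. Among 604 other tested SPNCRNA features, 53.8% were higher and 22.5% lower, with a median log2 fold change of 0.38, and 23.3% and 4.64% were at least 2-fold higher and lower. Among the 595 tested partners, 219 were higher and 265 lower, with a median of -0.05, beside -0.06 for 4403 protein-coding genes that are not partners, of which 35.5% were higher and 47.1% lower. Of the 595 partners, 45 were at least 2-fold higher and 12 at least 2-fold lower. Of the 4403 other protein-coding genes, 182 (4.13%) and 93 (2.11%) were. The authors' deposited table called 414 of 600 members with an adjusted p, 335 higher and 79 lower, and it called 71.5% of all its features. Of those 414, edgeR also called 413, all in the same direction.

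**Figure D1:**
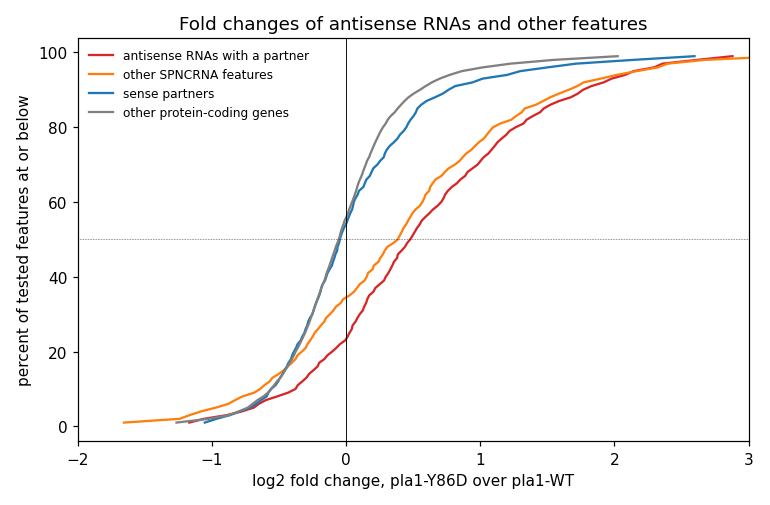
Cumulative distribution of the log2 fold change, pla1-Y86D over pla1-WT (x axis), as the percent of tested features at or below each value (y axis), for 4 classes of features. The curve of the antisense RNAs lies to the right, with a median of 0.48, and that of the other SPNCRNA features has a median of 0.38, while partners and other protein-coding genes cross 50 percent just below 0.

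The largest increase among members with a mean count of at least 50 was that of ser2-antisense-1 (SPNCRNA.1470, chromosome II), opposite the phosphoserine phosphatase gene ser2 of serine synthesis. It was at 2.15, 2.18 and 2.11 CPM in the pla1-WT libraries and at 19.1, 19.0 and 21.0 CPM in the pla1-Y86D libraries. The log2 difference was 3.20 (SE 0.11) with an adjusted p of 8.11e-24 by edgeR. All 3 mutant libraries lay above all 3 controls, but members were named here only where the strains' libraries did not overlap. Next was ctp1-antisense-1 (SPNCRNA.1189), opposite the gene of the activator of DNA end resection, which rose from 2.93 ± 0.31 to 21.7 ± 0.22 CPM (SD, n = 3 each), a log2 fold change of 2.88. It overlaps an upstream gene on its own strand, cox5, whose mRNA had a log2 fold change of 0.0031 and was not called.

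The antisense RNA of rrp1, a gene of a chromatin remodeler and ubiquitin ligase, rose by 2.84 on the log2 scale, from 2.24 ± 0.14 to 16.1 ± 0.39 CPM. That of seh1, a gene of the SEACAT complex that acts in nutrient signalling, rose by 2.82, from 0.789 ± 0.12 to 5.61 ± 0.28 CPM. Increases of 2.80 and 2.65 were found opposite SPAP8A3.07c, an aldolase gene of aromatic amino acid synthesis, and otu1, a deubiquitinase gene. The group of 12 was completed by mdl1 (2.58), a mitochondrial peptide transporter gene, cbp6 (2.42), a gene of respiratory complex III assembly, the sphingolipid synthase gene aur1 (2.42), SPBC19F8.04c (2.41), the splicing protein gene SPAC29A4.06c (2.35) and the aminotransferase gene SPAC1039.07c (2.33). The highest adjusted p among the 12, by edgeR, was 2.27e-10. Their partners did not follow one direction: 7 were lower, 3 higher (cbp6 at 0.25, seh1 at 0.17, SPAC1039.07c at 0.76) and 2 not called. One of the 7, the ctp1 mRNA at -0.09, was near the threshold (edgeR adjusted p = 0.0394; 0.281 without pla1-WT replicate 3, at -0.05).

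Decreases of 2-fold or more were found in 14 members. The largest of these was that of pof9-antisense-1 (SPNCRNA.1471), opposite an F-box protein gene. It stood at 29.5, 26.7 and 24.8 CPM in pla1-WT and at 8.36, 6.91 and 7.09 CPM in pla1-Y86D. The log2 difference was -1.86 (SE 0.086) with an adjusted p of 4.7e-20 by edgeR, while pof9 itself was higher by 0.41. The strains' libraries did not overlap, which the rule for naming decreases required. This RNA and ser2-antisense-1, described above, lie on the same strand of chromosome II, and pof9-antisense-1 comes first in the direction of transcription.

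The next decreases, among members and partners with mean counts of at least 50, were opposite the microtubule-binding protein gene mcp1 (-1.30), the kinase gene ckk2 (-1.29), SPAC5H10.12c (-1.27), a galactosyltransferase gene, the pantothenate kinase gene ptk1 (-1.24), the meiotic gene hop1 (-1.15), SPCC18.03 (-1.15) and the meiotic cohesin gene rec11 (-1.13). The highest adjusted p among these 8, by edgeR, was 9.45e-07. Of the 8 partners, pof9, ckk2, hop1 and rec11 were higher, and mcp1, SPAC5H10.12c, ptk1 and SPCC18.03 were lower.

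Among pairs with both features called, 209 changed in opposite directions and 153 in the same direction. Both features were tested in 580 pairs and both were called in 362. The 209 opposite pairs held 167 with the antisense RNA higher and the partner lower and 42 of the reverse. The 153 same-direction pairs held 119 with both higher and 34 with both lower. With both changes at 1.5-fold or more the pairs were 34 opposite, of which 27 had the antisense RNA higher, and 21 in the same direction, of which 20 were both higher. At 2-fold or more for both there were 6 opposite pairs and 5 same-direction pairs. As a description across the 580 pairs, which share their libraries and scaling, Spearman's rho between the antisense and partner log2 fold changes was -0.15 and Pearson's r was -0.12, and rho was -0.17 in the 444 pairs with both mean counts at 50 or more.

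Partners were also counted by the call of their antisense RNA. Partners were called lower for 46.8% of the antisense RNAs that were higher, for 37.4% of those that were lower and for 42.2% of those not called. Among all tested partners 44.5% were lower, so 46.8% was near that share. The share of all features was 41.1%. For the 170 members that were at least 2-fold higher, 93 of 169 tested partners were lower and 46 higher, with a median partner log2 fold change of -0.15. Seen from the partner, antisense RNAs of the 44 tested pairs whose partner was at least 2-fold higher split into 18 higher, 12 lower and 14 not called, with a median of 0.06. Opposite the partners that were at least 2-fold lower, 10 of 12 tested antisense RNAs were higher and none was lower by edgeR (0 of 12). The shares higher in these 2 groups were 40.9% and 83.3%, beside 61.2% of all tested members and 40.1% of all features. Among all tested members 15.6% were lower. Both groups are small, and their difference was not tested. The median change in the log2 ratio of antisense to partner counts was 0.50 over the pairs. A call in either direction was made for 81.2% of all features, so pairs with both features called are common. Members were also mostly higher, and more partners were called lower than higher. These directions alone make opposite pairs more common than same-direction pairs. The rate at which unrelated features would pair in opposite directions was not tested.

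**Figure D2:**
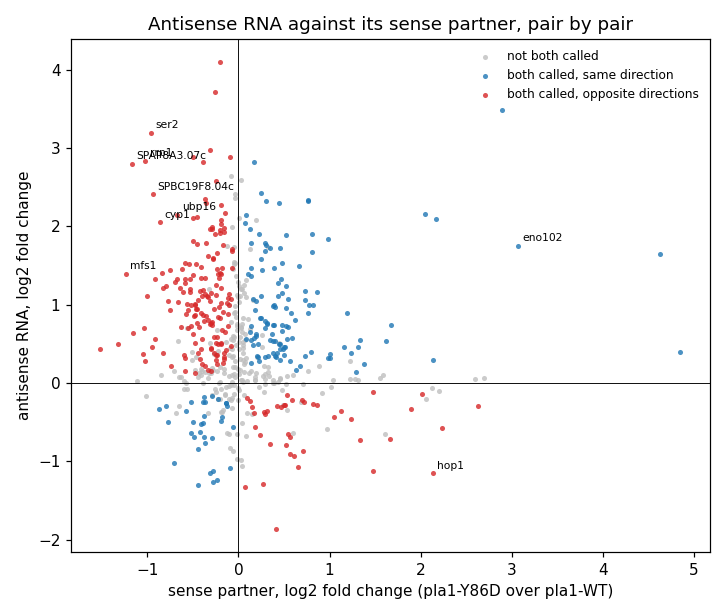
Log2 fold change of the antisense RNA (y axis) against that of its sense partner (x axis), pla1-Y86D over pla1-WT, 1 point per pair with both features tested (580 pairs). Red points are the 209 pairs called in opposite directions, blue points the 153 called in the same direction, and the named pairs are eno102 and the 8 with the largest difference among opposite pairs with both changes of at least 1.5-fold.

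The 8 pairs described next had the largest difference between antisense and partner log2 fold change among the 34 pairs called in opposite directions with both changes of at least 1.5-fold. They were chosen for that difference, so its size is a description. At ser2 the mRNA stood at 129.8, 127.7 and 124.7 CPM in pla1-WT and at 66.3, 63.2 and 66.4 CPM in pla1-Y86D, a log2 fold change of -0.96. The antisense RNA made up 1.6%, 1.7% and 1.7% of the counts of the pair in the controls and 22.3%, 23.1% and 24.0% in the mutant. The sense RNA thus remained the larger of the pair in every library.

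At rrp1 the mRNA fell by 1.02 on the log2 scale, from 38.3 ± 0.98 to 18.8 ± 0.92 CPM, and the antisense share of the pair went from between 5.2% and 5.9% to between 45.0% and 46.9%. At SPBC19F8.04c, a nuclease gene, the larger RNA of the pair changed. The antisense RNA was at 11.9, 11.97 and 12.9 CPM in pla1-WT and 64.4, 68.9 and 62.3 CPM in pla1-Y86D, and the mRNA was at 29.8, 33.9 and 32.3 CPM and then at 16.3, 17.5 and 16.4 CPM. The mRNA was thus above the antisense RNA in all 3 control libraries and below it in all 3 mutant libraries.

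At SPAP8A3.07c the mRNA was abundant and fell by 1.17, from 589 ± 17 to 261 ± 5.9 CPM, while the antisense RNA stayed under 2% of the pair in all 6 libraries. Its own counts were low, with 22, 5 and 17 in pla1-WT and 89, 82 and 105 in pla1-Y86D. The pla1-WT counts alone would not have passed the filter on low counts. At mfs1, a spermidine transporter gene, the mRNA fell from 141 ± 12 to 59.7 ± 2.9 CPM (log2 fold change -1.24) and the antisense RNA rose from 8.19 ± 0.06 to 21.6 ± 1.4 CPM (1.40). The cyclophilin gene cyp1 (-0.87) and its antisense RNA (2.05), and the ubiquitin hydrolase gene ubp16 (-0.67) and its antisense RNA (2.15), changed the same way as the pairs above.

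**Figure D3:**
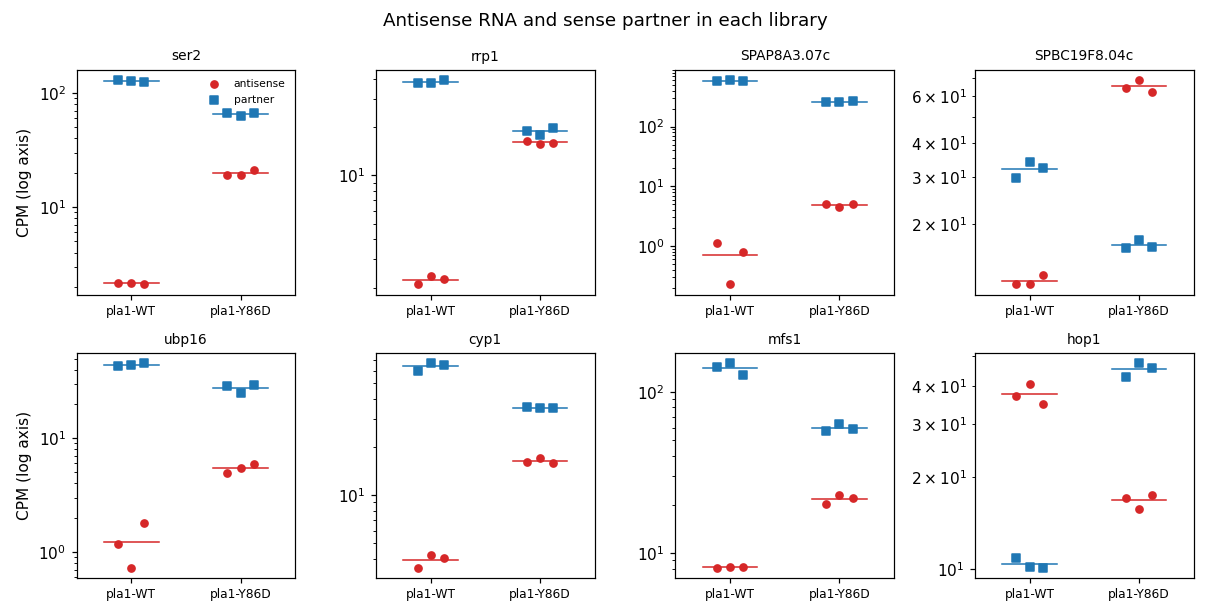
CPM (log axis) of the antisense RNA (circles) and the sense partner (squares) in each of the 3 pla1-WT and 3 pla1-Y86D libraries, for the 8 opposite pairs with the largest difference in log2 fold change among those with both changes of at least 1.5-fold, with lines at the means. In the first 7 panels the antisense RNA is higher and the partner lower in the mutant, and at hop1 the reverse holds.

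One of these 8 pairs, at hop1, ran the other way. The gene encodes a protein of the meiotic linear elements, the structures on which recombination is arranged. Its mRNA was at 10.8, 10.1 and 10.1 CPM in pla1-WT and at 42.7, 47.5 and 45.8 CPM in pla1-Y86D, a log2 fold change of 2.13. The antisense RNA was at 37.1, 40.4 and 34.9 CPM in the controls and at 17.1, 15.8 and 17.5 CPM in the mutant, where the sense RNA became the larger one. Among pairs with both changes past 2-fold, rec11 was the other with a higher mRNA and a lower antisense RNA. Its antisense share of the pair was 27.6%, 29.5% and 27.5% in pla1-WT and 6.5%, 7.0% and 4.8% in pla1-Y86D, and its mRNA rose by 1.48.

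Only 1 pair had both features higher by 2-fold or more at mean counts of at least 50, that of the enolase gene eno102. The mRNA rose from 2.3 ± 0.29 to 19.3 ± 1.1 CPM and the antisense RNA from 11.04 ± 1.3 to 37.2 ± 1.7 CPM, log2 fold changes of 3.07 and 1.75. The genome holds a second enolase gene, so reads of this pair are uncertain. At lower counts meu26, a gene named for its rise in meiosis, had 2.17 for its mRNA and 2.09 for its antisense RNA.

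Partners from the list of Mmi1 targets and meiotic genes, including every gene named mug or meu, were higher in 19 of 27 cases (70.4%), beside 36.8% of all tested partners and 40.1% of all features. Their antisense RNAs were higher in 13 of 28 cases (46.4%), near the 40.1% of all features and below the 61.2% of all members. One of the 13, meu10-antisense-1 (0.33, edgeR adjusted p = 0.0483), lost the call in 7 alternatives. Among the 19 higher partners, mug30 (0.15) lost it in 5. The list had 29 members, 28 of them tested, of which 7 were lower and 8 not called, with a median log2 fold change of 0.12, against 0.48 for all members. Of the tested partners 3 were lower, and their median was 0.59, against -0.05 for all partners. In 6 pairs both were called in opposite directions and in 8 in the same direction. The list was drawn up with earlier results of these libraries known, and neither its counts nor its medians were tested.

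Several of these genes were nearly silent beside an abundant antisense RNA. The largest such member was spo4-antisense-1 (SPNCRNA.1644), which spans the whole of spo4, the gene of a kinase of meiosis. It was at 66.3, 65.9 and 65.4 CPM in pla1-WT and 49.2, 46.9 and 47.9 CPM in pla1-Y86D, a log2 fold change of -0.46. The mRNA had 7, 8 and 7 counts in the controls and 11, 18 and 18 in the mutant (log2 fold change 1.24, SE 0.39, edgeR adjusted p = 0.00406). The antisense RNA therefore held at least 97.9% of the counts of the pair in every library. The spo4 mRNA passed the filter on low counts only through its pla1-Y86D libraries, which favours a call of higher.

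At dmc1, the meiotic recombinase gene, the antisense RNA was lower by 0.36 and the mRNA, with 13 to 20 counts in pla1-WT and 24 to 41 in pla1-Y86D, was higher by 1.12. At mug95 the antisense log2 fold change was -0.33, beside 1.89 for the mRNA. At meu18 the antisense RNA fell by 0.93, from 14.6 ± 0.4 to 7.73 ± 0.89 CPM, and the mRNA rose by 0.61. The gene of the recombination initiator Rec12 was the reverse case, with the mRNA lower (-0.63) and the antisense RNA higher (0.71). In several pairs the mRNA rose beside an antisense RNA that was not called, at 2.59 against 0.05 for mug147 and 1.28 against 0.05 for meu14, and in mcp6, a gene of meiotic nuclear movement, both rose, by 1.24 and 0.38. At mug93 the antisense RNA rose by 2.29, from 8.15 ± 0.51 to 39.9 ± 1.3 CPM, opposite an mRNA with too few counts to test (5 to 9 per library).

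All 3 partners on the carbon metabolism list, eno102, ght6 and fbp1, were higher, with 1 antisense RNA higher, 1 lower and 1 not called. Among all features 40.1% were higher and 41.1% lower, and among all tested partners 36.8% were higher. A list of 3 is too short to set against these shares. The antisense RNA of ght6, a hexose transporter gene, spans the gene and stood at 53.8, 53.8 and 57.8 CPM in pla1-WT and 37.0, 35.1 and 39.1 CPM in pla1-Y86D (log2 fold change -0.57). The ght6 mRNA had 17, 7 and 17 counts in the controls and 56, 56 and 62 in the mutant, a log2 fold change of 2.23. Its control counts alone would not have passed the filter on low counts. At fbp1, the gluconeogenic fructose-1,6-bisphosphatase gene, the mRNA rose from 6.36 ± 0.8 to 29.2 ± 0.28 CPM (2.20) and the antisense RNA, at 32.9 ± 0.82 and 30.7 ± 1.4 CPM, was not called (log2 fold change -0.10, edgeR adjusted p = 0.0832). Without pla1-Y86D replicate 2 its adjusted p by edgeR was 0.0360. The antisense share of the fbp1 pair was between 82.4% and 85.2% in the controls and between 50.7% and 52.4% in the mutant.

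**Figure D4:**
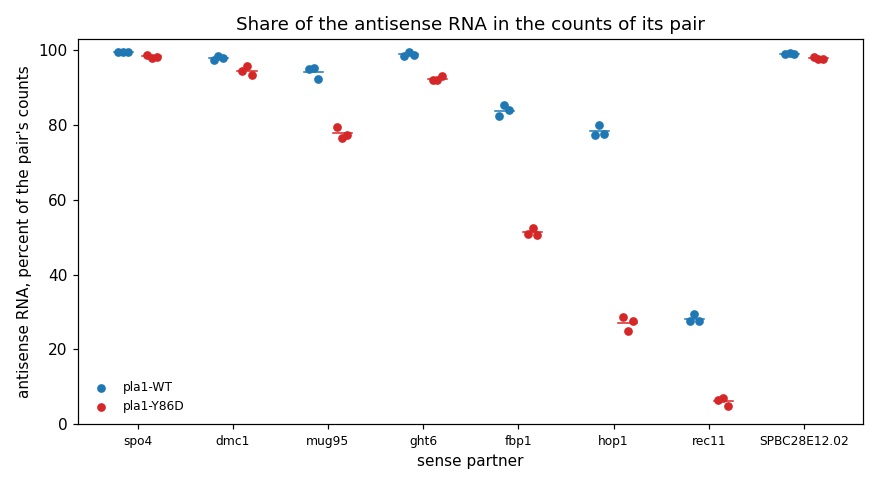
Antisense RNA as a percent of the counts of its pair (y axis) in each library for 8 pairs chosen after their values were seen (x axis), pla1-WT in blue and pla1-Y86D in red, with lines at the means. All 8 shares are lower in the mutant, from a small drop at spo4 and SPBC28E12.02 to the drop at hop1 from between 77.4% and 80.0% to between 24.9% and 28.6%. These pairs do not stand for all pairs, over which the median change in the log2 ratio of antisense to partner counts was an increase (0.50).

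Both members of the phosphate list lay opposite genes of inositol pyrophosphate metabolism. The antisense RNA of aps1, a hydrolase gene that the series title names, had 13, 13 and 9 counts in pla1-WT and 37, 46 and 42 in pla1-Y86D, a log2 difference of 1.99 (SE 0.27) with an adjusted p of 3.81e-08 by edgeR. That of asp1, the gene of the kinase and pyrophosphatase that makes and removes these molecules, had 20, 8 and 12 counts and then 50, 53 and 52, which was higher by 2.1 on the log2 scale (SE 0.26). For neither antisense RNA would the pla1-WT counts alone have passed the filter on low counts. Both mRNAs were lower, aps1 by 0.29 (from 90.9 ± 2.7 to 74.4 ± 2.4 CPM) and asp1 by 0.50 (from 41.0 ± 1.4 to 29.0 ± 0.5 CPM). Among all tested members 61.2% were higher, and among all tested partners 44.5% were lower, beside 40.1% higher and 41.1% lower among all features. The antisense RNA held at most 3.3% of the counts of the aps1 pair and 9.0% of the asp1 pair in any library.

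Of 9 members opposite ribosomal protein genes, 3 were higher, 1 lower and 5 not called, while 7 partners were lower and 2 higher, beside 40.1% higher and 41.1% lower among all features. The antisense share, 33.3% higher, was near that of all features. The 1 lower antisense RNA, rpl902-antisense-1, had a log2 fold change of -0.50, and so had the rpl902 mRNA. The part of sense reads counted on the wrong strand in this was not tested. Among the 7 lower partners, rpl1801 (-0.07) and rps1501 (-0.07) lost the call in 4 alternatives each, with adjusted p of 0.0932 and 0.0994 by edgeR with upper-quartile scaling. The largest rise was at rpl1801, whose antisense RNA went from 1.91 ± 0.68 to 6.02 ± 0.48 CPM (log2 fold change 1.68). At rpl102 the antisense RNA, rpl102-antisense-1, was not called (log2 fold change 0.62, edgeR adjusted p = 0.0712), and without pla1-WT replicate 1 it stood at 1.07 and was called (edgeR adjusted p = 0.000549). Ribosomal proteins are often encoded by near-identical gene pairs, so these counts are uncertain. Opposite the stress genes, sty1 (0.35) and trr1 (0.48) had higher antisense RNAs and cta3 (-0.16) a lower one, a call that was lost with DESeq2 and without pla1-WT replicate 2 or 3 (adjusted p from 0.0527 to 0.0695 by edgeR and DESeq2 for cta3-antisense-1). The iron list had no member.

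The most abundant antisense RNAs moved in both directions. The highest mean count, 4138, was that of SPAC890.05-antisense-1, opposite a gene of ribosome biogenesis. It was at 84.1, 94.4 and 91.4 CPM in pla1-WT and 325.1, 339.5 and 344.9 CPM in pla1-Y86D (log2 fold change 1.90, SE 0.033), while the partner fell by 0.25. That of SPCC1884.01 was lower by 0.34 and that of the pseudouridine synthase gene pus2 higher by 0.79 (48.9 ± 4.8 to 84.8 ± 4.6 CPM). The antisense RNA of SPBC28E12.02, an RNA-binding protein gene with 12 to 33 counts per library, was higher by 0.15. The gene with the most antisense RNAs, eta2, had 4. Only eta2-antisense-1 had counts and it was lower by 0.65, with the eta2 mRNA higher by 0.55, while the other three were at 0 in all 6 libraries.

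Levels per transcript length showed where the antisense RNA was the denser one. RefSeq lengths were found for 602 members (median 1.42 kb) and for all 598 partners (median 1.70 kb per pair). By mean CPM per kb over the 6 libraries, 86 antisense RNAs were above their partner. Of these, 45 were higher (52.3%), 18 lower (20.9%) and 23 not called (median 0.21). Of 83 tested partners 40 were higher (48.2%) and 25 lower (30.1%). Among the 516 that were below their partner, 311 of 496 tested were higher and 73 lower (median 0.52), and 180 partners were higher and 240 lower. At spo4 the antisense RNA was at 24.6 CPM per kb and the mRNA at 0.248 CPM per kb in pla1-WT.

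The members were also grouped by position in the RefSeq annotation. The antisense span overlapped the partner on the opposite strand in 595 pairs, 1 was annotated on the same strand, 6 did not overlap and 13 had no match. Members that covered the whole partner had a median log2 fold change of 0.35 (119 tested), those that covered its start 0.48 (250), those that covered its end 0.60 (92) and those inside it 0.61 (114). Members at least 2-fold higher were 18.5%, 28.0%, 34.8% and 37.7% of these groups in the same order, beside 9.02% of all features. The groups also differed in abundance, with median mean counts of 250.5, 109, 174 and 94.6, and the part of abundance in the order was not tested.

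Antisense RNAs that overlap a gene upstream on their own strand were higher in 33 of 42 cases. All 42 were tested, and beside the 33 higher there were 6 lower and, among the higher, 25 that were at least 2-fold higher, with a median log2 fold change of 1.19. Among the 540 tested members with no such overlap, 323 were higher, 85 lower and 144 at least 2-fold higher, with a median of 0.44. The shares higher were 78.6% with the overlap and 59.8% without, beside 40.1% of all features. The shares at least 2-fold higher were 59.5% and 26.7%, beside 9.02% of all features. The difference between the groups was not tested. The upstream genes themselves were lower in 22 cases and higher in 13, with a median of -0.11. Among all features 41.1% were lower and 40.1% higher, and among protein-coding genes that are not partners 47.1% and 35.5%. Across 41 of them Spearman's rho between the upstream gene and the antisense RNA was 0.0068. The strongest rise of any tested member, that of tad2-antisense-1, named after its value was seen because its mean count was under 50, is of this kind. It had 4, 3 and 6 counts in pla1-WT and 65, 70 and 69 in pla1-Y86D, downstream of rps1801, which was higher by 0.31. It passed the filter on low counts only through its pla1-Y86D libraries, which favours a call of higher. Most of the 42 carry a note in the authors' deposited table as a possible alternative UTR, and reads in the overlap could be counted to either feature, so their counts are uncertain. Of all 94 members with that note, 60 were higher and 15 lower (median 0.68, 92 tested), and of the 521 without it 297 were higher and 76 lower (median 0.45, 491 tested). The shares higher were 65.2% and 60.5%, and the shares lower 16.3% and 15.5%.

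**Figure D5:**
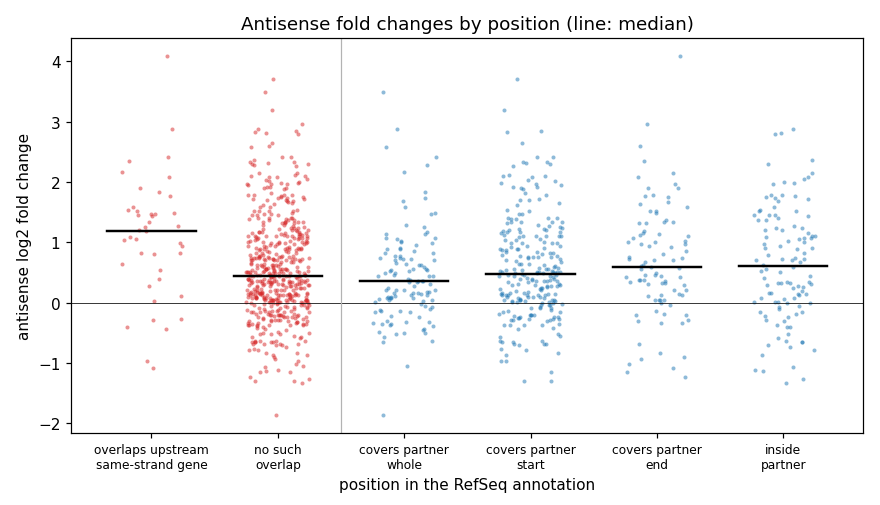
Log2 fold change of each tested antisense RNA (y axis, 1 point each) by its position in the RefSeq annotation (x axis), with lines at the medians. On the left, members that overlap an upstream gene on their own strand (median 1.19) are set beside those that do not (0.44), and on the right are the members by how they cover their partner (0.35, 0.48, 0.60 and 0.61).

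The strand setting of the authors' counting is not given in the sources used here, so the share of sense reads that could appear as antisense was read from the pairs with the most abundant partners. Among 13 pairs with a partner mean count of at least 20000, the antisense count was between 0.00926% and 0.851% of the partner's, with a median of 0.193%. Among the 122 members inside their partner, 85 had a mean count of at least 50.

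Genes whose products are known to limit antisense RNA were mostly slightly lower in mRNA. Of 49 such genes, which cover the exosome, TRAMP and MTREC, Mmi1, RNA interference, histone modification, histone chaperones and termination, 34 were lower, 3 higher and 12 not called, with a median log2 fold change of -0.24, beside 41.1% lower and 40.1% higher among all features. The largest decreases were those of the exosome cofactor gene cti1 (-1.17), the exosome subunit gene rrp46 (-0.68), the termination factor gene rhn1 (-0.66) and the histone chaperone gene spt6 (-0.63). The nuclease gene rrp6 (0.01) and the helicase gene mtl1 (-0.0023) were not called, and red1 (0.29), pht1 (0.12) and pcf11 (0.38) were higher. The part of these changes in the antisense levels was not tested.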

How the data were processed

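The authors deposited whole-number counts per feature, without normalization; build ASM294v2 and the tools DESeq2, DESeq, HTSeq (0.10.0), SAMtools and HISAT2 (2.1.0) are named without their roles, per the submitters' processing notes. From the authors' deposited DESeq2 table, only names, notes and calls were used; its values are signal (means of counts over size factors), log2 fold changes, a Wald score and p-values, per the file headers. Features were fitted with edgeR 4.0.16 in R 4.3.3 (filterByExpr, TMM, robust quasi-likelihood, strain as the only term, all 6 libraries), and p-values were adjusted by Benjamini-Hochberg over 6267 features. A feature low in pla1-WT could pass filterByExpr through pla1-Y86D alone, which favours a call of higher. The reverse holds for features low in pla1-Y86D. Standard errors were derived from the log2 fold change and its F statistic. DESeq2 1.42.0 and limma-voom (limma 3.58.1) were alternatives. The script was tested on simulated data. RefSeq ASM294v3, another build, gave names, strands, neighbours, lengths and end sequences by identifier only. Named members were the 12 largest increases and 8 largest decreases (mean count of at least 50, for decreases in the partner too, libraries not overlapping), the 8 opposite pairs with the largest difference in log2 fold change among those with both changes of at least 1.5-fold, same-direction pairs with both past 2-fold, the 5 most abundant, members opposite listed genes and genes with 3 or more antisense RNAs. Members and lists were chosen with earlier results of these data known.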

Additional observations from a re-analysis of the deposited data

How the results depend on the processing

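Across other scalings (RLE, upper quartile, library totals), no filter, DESeq2, limma-voom, the replicate block and each left-out library, the count of higher members stayed between 335 and 363 and of lower members between 79 and 94, and no named value past the threshold changed sign. Same-numbered libraries did not deviate together (correlations -0.0694, -0.0287 and -0.0587), so the numbers were not taken as pairs, and the replicate block gave 354 higher and 89 lower. With both mean counts at 50 or more the counts were 276 and 79, the median antisense log2 fold change was 0.40 and the median change of the antisense to partner log2 ratio was 0.45. Leaving out 1 library each, that ratio change ranged from 0.46 to 0.53, the lowest without pla1-WT replicate 2. Without the members noted as possible alternative UTRs, an alternative chosen after seeing the data, 297 were higher and 76 lower; with only opposite-strand overlaps, also chosen then, 350 and 91. The antisense RNA of rps1601, not called at -0.34, was at 0.38 without pla1-WT replicate 1. Values near 10 counts rest on few reads. Causes were not tested.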
